A study of Mus musculus with 6 samples.

Results

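The TNF superfamily ligands, their receptors and the TRAF adaptors were followed in wild-type mouse neural stem progenitor cells, the self-renewing source of neurons, astrocytes and oligodendrocytes. Members were chosen by gene symbol alone: the Tnf, Tnfsf, Tnfrsf and Traf symbols and Lta, Ltb, Ltbr, Fas, Fasl, Cd40, Cd40lg, Cd27, Cd70, Eda, Edar and Eda2r. This gave 51 of the 22322 genes in the deposited table (0.228%). Of these, 24 reached a count of 10 or more in at least 3 libraries. The cells had been given PTN, or PBS in the Control group, and belong to the 24 h time point, with 3 libraries in each group. All 6 libraries carried the same wild-type genotype. The series title places the addition of PTN in a conditioned medium setting. PTN is not spelled out in the labels and is taken here to mean pleiotrophin, a secreted heparin-binding growth factor. The sources used here do not state the age and origin of the cells or the amount of PTN.

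TNF family ligands are mostly made as membrane proteins that work in trimers and can be shed. Their receptors signal in broadly separate ways. Those with a death domain can build a complex that activates caspase-8. Others recruit TRAF adaptors, which lead to the transcription factor NF-kB and to stress kinases. Decoy receptors bind ligand without passing on the signal. In the brain, microglia are a well known source of TNF, and neural progenitors are known to carry several of the receptors.

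The libraries held 19267764 to 25975205 counts in PTN and 21268297 to 26341745 counts in Control, so that 1 CPM, a count scaled to library size with TMM factors, stood for 19 to 26 counts. The labelled cell type was checked against its markers: all 12 neural stem and progenitor markers were measured, with a summed level of 4407 to 5525 FPKM in PTN and 3579 to 4512 FPKM in Control. FPKM, the deposited value scaled by gene length and depth, is used here to compare genes. Most of this sum was Vim, with means of 2358 FPKM in PTN and 1580 FPKM in Control, and Fabp7, with 2038 and 2112 FPKM. The stem and progenitor markers moved in both directions. Vim and Egfr were called higher and Hes5 lower by edgeR, Msi1 had PTN values below Control values, and the others overlapped. Astrocyte markers were also high, at 1309 to 2394 FPKM in PTN and 3291 to 3421 FPKM in Control. They did not move together: Gfap and Aldoc were called lower by edgeR, and Aldh1l1 had PTN values below Control values. Slc1a3 and S100b had PTN values above Control values, and Aqp4, Slc1a2 and Gja1 overlapped. The 8 oligodendrocyte lineage markers summed to 475.5 to 642.9 FPKM in PTN and 519.7 to 612.6 FPKM in Control. Among these, Cspg4 was called lower by edgeR, Sox10 had PTN values below Control values, and the others overlapped. The 14 microglia markers summed to 2.9 to 4.22 FPKM in PTN and 3.54 to 3.93 FPKM in Control. Of these, P2ry12 (25 to 68 counts in PTN and 41 to 85 in Control) and Cd68 (35 to 49 in PTN and 32 to 70 in Control) were tested and not called. The other 12 had at most 16 counts in any library, among them Aif1 and Tmem119 with 0 in every PTN library and at most 3 in Control. Of 11 lymphocyte markers, Cd3d, Cd3e, Cd3g, Ms4a1 and Nkg7 had 0 counts in all 6 libraries. Whether replicates were separate cultures or animals is not in the labels, and the p-values cover the spread between these libraries alone, which may be technical. In bulk RNA, fewer cells of a type and less RNA per cell cannot be told apart.

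With PTN, Cd40, the receptor for CD40 ligand, was 7.02-fold higher, and Eda2r, the X-linked ectodysplasin A2 receptor, 2.00-fold higher. Tnfsf13, which encodes the ligand APRIL, was 2.07-fold lower by its own counts, but not once the counts of an overlapping gene were added. No other receptor was called by edgeR, while DESeq2's Wald test also called Fas, Tnfrsf10b, Tnfrsf1b and Tnfrsf21 higher. Of the 23 members tested, 2 rose and 1 fell by edgeR's quasi-likelihood test at an adjusted p under 0.05, or 13% of them. Over all 13161 genes tested, 7.99% were called, 4.93% higher and 3.06% lower. A positive log2 fold change was found in 19 of the 23 members (82.6%), with a median of 0.43, against 52.5% and a median of 0.030 over all tested genes. PTN and Control values did not overlap in 8 of the 23 (34.8%), 7 of them with PTN above and 1 with PTN below. By direction this was 30.4% above and 4.35% below, against 15.8% above, 17.1% below and 32.9% in all over the tested genes.

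**Figure D1:**
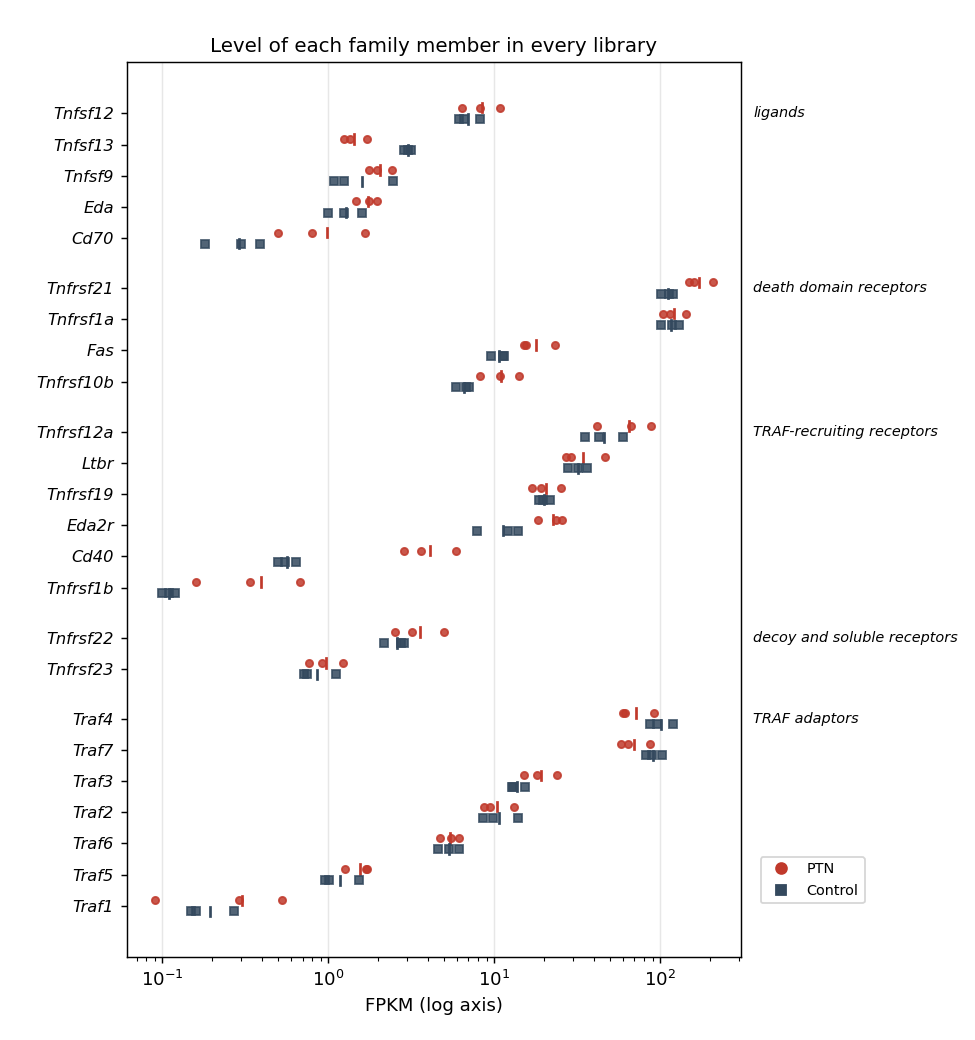
Level of the 24 family members with 10 or more counts in 3 libraries, in FPKM on a log axis, with each point a library and each short line a group mean (n = 3). Tnfrsf21 and Tnfrsf1a lie above 100 FPKM in all 6 libraries, and Cd40 is at 2.88 to 5.86 FPKM in PTN and 0.5 to 0.64 FPKM in Control.

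Ligands were scarce. Of 18 ligand genes, 5 met the count threshold, and Fasl, Cd40lg, Tnfsf4 and Tnfsf14 had 0 counts in all 6 libraries. A count of 0 allows up to 3 counts, or 0.115 to 0.156 CPM in PTN and 0.114 to 0.141 CPM in Control, and these limits cover counting error only. Tnf itself had 0, 1 and 1 counts in PTN 1, PTN 2 and PTN 3 and 0 in each Control library. Its close relatives Lta and Ltb, the lymphotoxins, had at most 2 counts in any library.

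Tnfsf12, which encodes TWEAK, the ligand of the injury-associated receptor Fn14, was the most abundant ligand, at 8.49 ± 2.27 FPKM in PTN and 6.96 ± 1.12 FPKM in Control (SD, n = 3 each). It held 47.8% to 58.1% of the summed ligand FPKM in PTN libraries and 44.1% to 56.3% in Control libraries. The counts of Tnfsf12 were fractional in all 6 libraries, and 48.3% of its exon bases are shared on the same strand with Tnfsfm13, so its level and share depend on how those reads were divided. Its difference was not called (log2 change 0.25 with SE 0.24, adjusted p = 0.499 by edgeR). Tnfsf9, the 4-1BB ligand gene, averaged 2.05 ± 0.333 FPKM in PTN and 1.59 ± 0.74 FPKM in Control, and Eda, the ectodysplasin gene, 1.73 ± 0.256 FPKM in PTN and 1.28 ± 0.296 FPKM in Control (SD, n = 3 each). An antisense gene covers 14.9% of the Tnfsf9 exon bases. Neither was called (edgeR adjusted p = 0.492 for Tnfsf9 and 0.247 for Eda).

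Tnfsf13 encodes APRIL, a ligand known for keeping plasma cells alive. It had 1.77, 2.44 and 1.96 CPM in PTN 1, PTN 2 and PTN 3 and 4.25, 4.12 and 4.47 CPM in Control 1, Control 2 and Control 3. Every PTN value lay below every Control value, and the log2 fold change was -1.05 ± 0.24 (SE, adjusted p = 0.0342 by edgeR). The counts of Tnfsf13 were fractional in all 6 libraries, and 60% of its annotated exon bases are shared, on the same strand, with Tnfsfm13, a gene that joins Tnfsf12 to Tnfsf13. Exons of Tnfsf13os, an antisense gene, cover 13.5% of them. Tnfsfm13, with every PTN value above every Control value, was not called, at 6.61, 6.93 and 6.88 CPM in PTN and 5.14, 4.7 and 3.64 CPM in Control (log2 change 0.59 with SE 0.21, adjusted p = 0.116 by edgeR). The sum of Tnfsf13 and Tnfsfm13 was 8.87 ± 0.497 CPM in PTN and 8.77 ± 0.642 CPM in Control (SD, n = 3 each), with overlapping groups. With those counts added together before the test, the log2 fold change was 0.015 ± 0.17 (SE, adjusted p = 0.961 by edgeR). Whether the division of shared reads sets the Tnfsf13 value was not tested beyond this sum. The call on Tnfsf13 also ended without PTN 1, Control 1, Control 2 or Control 3, with edgeR adjusted p between 0.101 and 0.136.

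**Figure D2:**
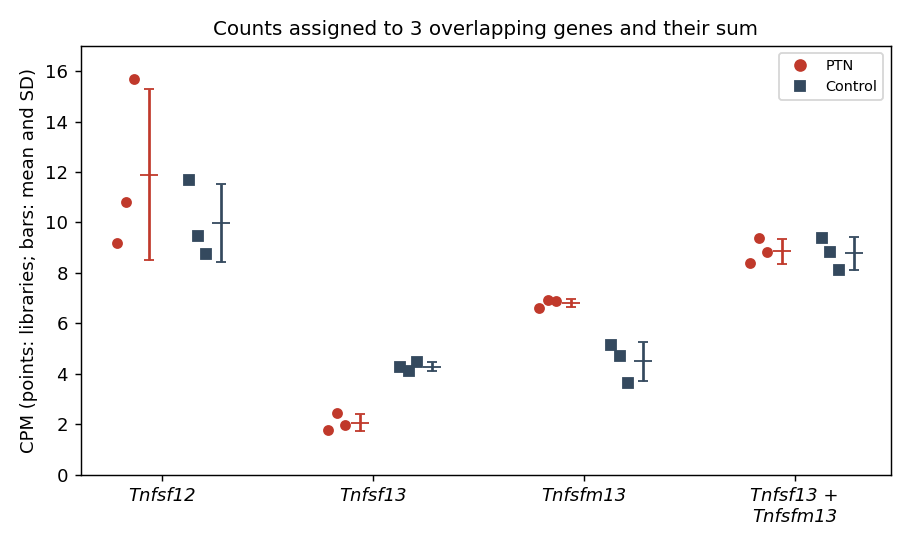
CPM assigned to Tnfsf12, Tnfsf13 and Tnfsfm13, which share exons, and the sum of Tnfsf13 and Tnfsfm13; points are libraries and bars the mean and SD (n = 3). Tnfsf13 averages 2.06 CPM in PTN and 4.28 CPM in Control, Tnfsfm13 6.81 CPM in PTN and 4.49 CPM in Control, and their sum is 8.87 CPM in PTN and 8.77 CPM in Control.

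Cd70, the ligand of CD27, had 11, 15 and 27 counts in PTN and 6, 4 and 7 in Control, so it met the count threshold through PTN libraries alone. It was left out by the filter of the test. With the filter set at 10 counts in 3 libraries, its log2 fold change was 1.74 with an edgeR adjusted p of 0.1, and 7.93% of all genes were called under that filter. Tnfsf18, the GITR ligand gene, lay just outside the threshold with 44, 8 and 30 counts in PTN and 7, 4 and 4 in Control. Tnfsf11, which encodes RANKL, the ligand that drives osteoclast formation, was also just outside, with 0, 3 and 1 counts in PTN and 5, 13 and 11 in Control. In an edgeR fit with no filter, Tnfsf18 was called higher (log2 fold change 2.48 ± 0.65 SE, adjusted p = 0.0445) and Tnfsf11 was not called (adjusted p = 0.111), beside 6.55% of all genes.

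Death domain receptors had the highest summed level of the 5 classes in every library, at 290 to 381 FPKM in PTN and 220 to 267 FPKM in Control. Of 6 genes, 4 were tested and 0 were called by edgeR (7.99% of all genes). All 4 had a positive log2 fold change, against 52.5% of all genes, but that of Tnfrsf1a was negative without PTN 3 and without Control 2. At an unadjusted p under 0.05 there were 3 higher (14.7% of all genes), by DESeq2's Wald test 3 (8.62%) and by limma-voom 0 (4.63%). The 3 receptors in question, Tnfrsf21, Fas and Tnfrsf10b, each had all PTN values above all Control values, as had 15.8% of all genes, and lay between an edgeR adjusted p of 0.0571 and 0.0652.

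Tnfrsf21 encodes death receptor 6, which is known in neurons for a part in axon pruning and in the oligodendrocyte lineage as a brake on maturation. It had the highest mean over all 6 libraries of any member, at 172 ± 31.5 FPKM in PTN and 112 ± 9.49 FPKM in Control (SD, n = 3 each). By library it had 584, 540 and 757 CPM in PTN and 433, 370 and 409 CPM in Control. The lowest PTN value was above the highest Control value, and the log2 fold change was 0.63 ± 0.17 (SE, adjusted p = 0.0571 by edgeR).

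Tnfrsf1a, the main receptor for soluble TNF, stood at 121 ± 20.3 FPKM in PTN and 116 ± 14.1 FPKM in Control (SD, n = 3 each), below Tnfrsf21 in each PTN library and above it in each Control library. Tnfrsf1a had 225, 243 and 307 CPM in PTN and 278, 221 and 251 CPM in Control, and the groups overlapped. The log2 fold change was 0.045 ± 0.17 (SE, adjusted p = 0.875 by edgeR).

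Fas, the receptor for Fas ligand, and Tnfrsf10b, the mouse TRAIL receptor, both trigger apoptosis and are both known targets of p53. Fas had 22.8, 34.1 and 22.3 CPM in PTN and 14.1, 16.8 and 16.8 CPM in Control. Tnfrsf10b had 34.7, 25.9 and 44.6 CPM in PTN and 22.3, 18.8 and 21.5 CPM in Control. Fas averaged 26.4 ± 6.66 CPM in PTN and 15.9 ± 1.56 CPM in Control, and Tnfrsf10b 35 ± 9.39 CPM in PTN and 20.9 ± 1.8 CPM in Control (SD, n = 3 each). Their log2 fold changes were close, at 0.73 ± 0.21 for Fas and 0.75 ± 0.21 for Tnfrsf10b (SE, adjusted p = 0.0652 by edgeR for both). The libraries behind them differed: the highest Fas value was 34.1 CPM in PTN 2, and the highest Tnfrsf10b value 44.6 CPM in PTN 3. The other members of the class were near the floor. Tnfrsf25, or death receptor 3, had 6, 8 and 7 counts in PTN and 0 in every Control library. Scaled to library totals, the PTN sum of 21 counts was 7.37-fold a floor of 3 counts over the Control group. This ratio leaves out counting error in PTN and the spread between libraries. For Tnfrsf25 the edgeR adjusted p was 0.028 with no filter, where 6.55% of all genes were called. Edar, the ectodysplasin A1 receptor, had 1, 4 and 1 counts in PTN and 0 in every Control library.

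**Figure D3:**
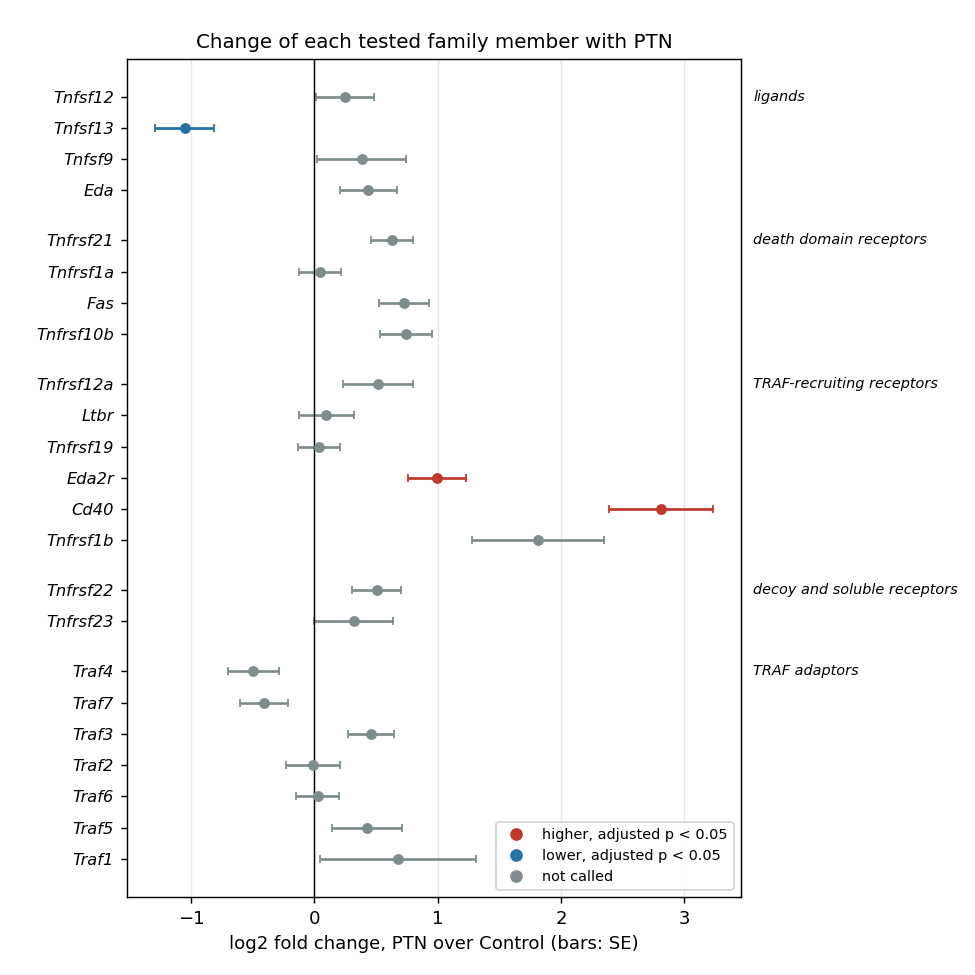
Log2 fold change, PTN over Control, of the 23 tested members, with bars giving the standard error of edgeR's quasi-likelihood fit. Cd40 and Eda2r are called higher and Tnfsf13 lower, while Traf4 and Traf7 have negative values that are not called.

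Receptors that recruit TRAF proteins held the called rises. Of 16 genes, 6 were tested and 2 rose (33.3%, against 4.93% of all genes). At an unadjusted p under 0.05 there were 3 higher (14.7% of all genes), by DESeq2's Wald test 3 (8.62%) and by limma-voom 2 (4.63%). All 6 had a positive log2 fold change, against 52.5% of all genes, but that of Tnfrsf19 was negative with a length trend removed, and those of Tnfrsf19 and Ltbr were negative without some single libraries. Cd40, an activating receptor best known from B cells and antigen-presenting cells, had 3.84, 2.76 and 6.5 CPM in PTN 1, PTN 2 and PTN 3 and 0.845, 0.573 and 0.421 CPM in Control 1, Control 2 and Control 3. Counts were 99, 62 and 125 in PTN and 20, 15 and 9 in Control, so the Control level rests on few reads. The groups stood far apart, with a log2 fold change of 2.81 ± 0.42 (SE, adjusted p = 0.00684 by edgeR). Cd40 kept its call in each of 13 alternatives, with adjusted p up to 0.0378. Microglia and endothelial cells can carry Cd40. The microglia sum given above is near the level of Cd40 itself in PTN, 4.12 ± 1.55 FPKM (SD, n = 3), and its groups overlapped, though Csf1r and C1qc had PTN values above Control values. Endothelial markers summed to 1.12 to 1.58 FPKM in PTN and 0.64 to 0.87 FPKM in Control, every PTN sum above every Control sum. Of the 8, 2 were tested and 0 called (7.99% of all genes by edgeR). Kdr, Cdh5, Emcn and Tie1 had PTN values above Control values, Cldn5 had them below, and Pecam1, Tek and Esam overlapped. The part of these cells in the Cd40 result was not tested. Its ligand gene Cd40lg had 0 counts in all 6 libraries.

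Eda2r encodes XEDAR, which binds the A2 form of ectodysplasin and is a known p53 target. It had 122, 110 and 85.5 CPM in PTN 1, PTN 2 and PTN 3 and 36.2, 66 and 56.7 CPM in Control 1, Control 2 and Control 3. Its lowest PTN value exceeded its highest Control value, and the log2 fold change was 1.00 ± 0.24 (SE, adjusted p = 0.0372 by edgeR). Here PTN 3 was the lowest PTN library, unlike for Cd40. The call ended when single libraries were left out, with edgeR adjusted p of 0.118, 0.08, 0.1 and 0.12 without PTN 1, PTN 2, Control 1 and Control 3. Eda2r stood at 22.5 ± 3.79 FPKM in PTN and 11.3 ± 3.14 FPKM in Control (SD, n = 3 each), far above Cd40.

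The promoter of Eda2r is shown because it is the called member whose promoter holds an NF-kB type motif, searched as GGG, then any 3 bases, then TTCC. Windows from 250 to 51 bases before each RefSeq start (GRCm38.p6) were searched on both strands, and matches may overlap. The motif lay in 3.46% of 32851 such windows. RefSeq entries matched 41 of the 51 members, and 5 of their 45 windows (11.1%) held it, those of Eda2r, Ltb, Tnfrsf25, Traf5 and Traf7. Cd40 is not in the table. The Eda2r window is chrX:97377260-97377459 on the minus strand, with the match in capitals.
Eda2r: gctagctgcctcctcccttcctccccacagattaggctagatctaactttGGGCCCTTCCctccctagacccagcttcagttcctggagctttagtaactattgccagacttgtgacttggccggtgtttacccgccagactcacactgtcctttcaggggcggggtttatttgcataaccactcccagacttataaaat
The match begins 200 bases before the start, on the strand of the gene. It is a description of these letters, not a site.

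Tnfrsf1b, the second TNF receptor, which lacks a death domain, had 34, 14 and 50 counts in PTN and 10 in each Control library. Its values were 1.32, 0.624 and 2.6 CPM in PTN and 0.423, 0.382 and 0.468 CPM in Control, with no overlap. The log2 fold change was 1.81 ± 0.54 (SE, adjusted p = 0.075 by edgeR), and 1.20 without PTN 3.

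The other abundant receptors overlapped between the groups. Tnfrsf12a, or Fn14, had 65.6, 40.9 and 86.7 CPM in PTN and 58.2, 35.1 and 41.7 CPM in Control (log2 change 0.52 with SE 0.28, adjusted p = 0.267 by edgeR). Ltbr, the lymphotoxin beta receptor, had 57.6, 61 and 97.8 CPM in PTN and 75.8, 58.7 and 67.5 CPM in Control (log2 change 0.099 with SE 0.22, adjusted p = 0.782 by edgeR). Tnfrsf19, or TROY, a receptor of embryonic neural progenitors and a Wnt target, had 65.5, 96.2 and 75.6 CPM in PTN and 71.7, 82.3 and 76.8 CPM in Control. Its log2 fold change was 0.040 ± 0.17 (SE, adjusted p = 0.889 by edgeR), and PTN values lay on both sides of the Control values. The remaining receptors of the class, which act mainly on lymphocytes and bone cells, had at most 11 counts in any library, and Tnfrsf14 had 0 in all 6. They were Tnfrsf4, Tnfrsf8, Tnfrsf9, Tnfrsf11a, Tnfrsf13b, Tnfrsf13c, Tnfrsf14, Tnfrsf17, Tnfrsf18 and Cd27.

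Of the decoy and soluble receptors, Tnfrsf22 and Tnfrsf23, which are mouse decoys for TRAIL, were tested and not called (log2 change 0.51 with SE 0.20, adjusted p = 0.15 by edgeR for Tnfrsf22 and 0.32 ± 0.32 SE, adjusted p = 0.529 for Tnfrsf23). Their counts were in part fractional, in 6 libraries for Tnfrsf22 and in 5 for Tnfrsf23, so reads of these neighbouring paralogs may be divided uncertainly. Tnfrsf22 had 9.68, 6.94 and 9.43 CPM in PTN and 6.14, 6.32 and 5.88 CPM in Control. Every PTN value of Tnfrsf22 was above every Control value, as in 15.8% of all genes, and the Tnfrsf23 groups overlapped. Tnfrsf11b, which encodes the soluble RANKL decoy osteoprotegerin, had at most 7 counts in any library, and Tnfrsf26 at most 6.

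Set beside each other, ligands and receptors rarely met. Of 26 known ligand and receptor pairs among the members, both partners met the count threshold in 2, Tnfrsf12a with Tnfsf12 and Eda2r with Eda. In 10 pairs the receptor alone met it, in 5 the ligand alone and in 9 neither. Fas, at 17.9 ± 4.5 FPKM in PTN and 10.8 ± 1.04 FPKM in Control (SD, n = 3 each), had a ligand gene listed at 0. Ltbr, at 34.2 ± 10.6 FPKM in PTN and 32 ± 4.26 FPKM in Control, had Tnfsf14 at 0 and Ltb with 2 counts in PTN 2 alone. The TRAIL gene Tnfsf10 had 6, 4 and 1 counts in PTN and 3, 11 and 6 in Control.

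**Figure D4:**
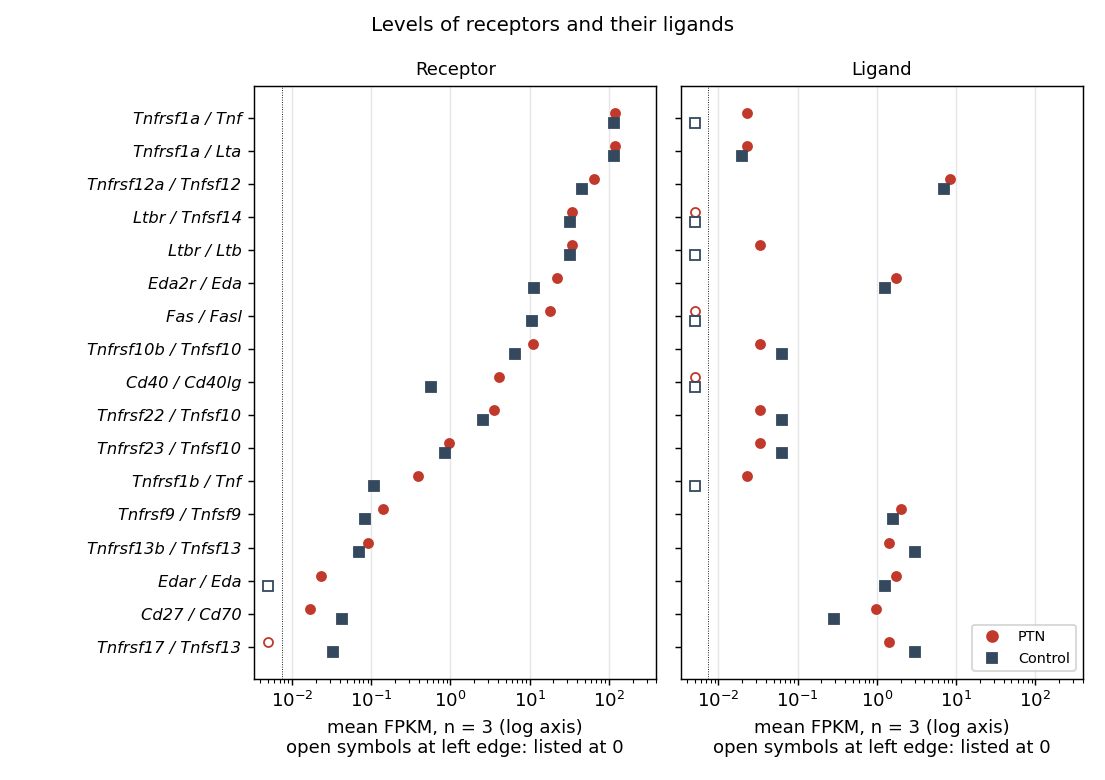
Mean FPKM (n = 3, log axis) of each receptor, left, and of its ligand, right, for the pairs in which at least 1 partner met the count threshold, with open symbols for genes listed at 0. Receptors reach 121 FPKM in PTN for Tnfrsf1a, while ligands stay at or under 8.49 FPKM.

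All 7 TRAF adaptor genes were tested and 0 were called by edgeR (7.99% of all genes). At an unadjusted p under 0.05 there were 1 higher (14.3%) and 1 lower (14.3%), against 14.7% and 12.2% of all genes. DESeq2's Wald test and limma-voom called 0, against 14.5% and 7.97% of all genes. Traf4, the TRAF of epithelial and neural development, and Traf7, a more distant member with ubiquitin ligase activity, were the most abundant. Traf4 had 128, 124 and 192 CPM in PTN and 245, 182 and 198 CPM in Control, and Traf7 had 124, 118 and 179 CPM in PTN and 214, 162 and 182 CPM in Control. In both genes PTN 3 lay among the Control values and the other PTN libraries lay below them. Their log2 fold changes were -0.50 ± 0.21 for Traf4 and -0.41 ± 0.20 for Traf7 (SE; adjusted p by edgeR 0.168 and 0.217). Without PTN 3 both were called lower, with log2 fold changes of -0.73 and -0.62 and edgeR adjusted p of 0.0292 and 0.0398. Of the Traf7 exon bases, 4.55% are also annotated to Rab26 on the same strand and 1.87% to Caskin1 on the other.

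Traf3, which restrains the alternative NF-kB pathway, averaged 123 ± 28.8 CPM in PTN and 89.7 ± 8.89 CPM in Control (SD, n = 3 each, edgeR adjusted p = 0.165). Traf2 and Traf6, the main adaptors of TNF and of CD40 and Toll-like receptors, had log2 fold changes of -0.011 ± 0.22 and 0.027 ± 0.17 (SE; adjusted p by edgeR 0.977 and 0.929). Traf5 averaged 3.47 ± 0.571 CPM in PTN and 2.58 ± 0.697 CPM in Control. Traf1, a TRAF that NF-kB is known to induce, had 5, 27 and 14 counts in PTN and 15, 9 and 7 in Control, with PTN 1 the lowest library of all (edgeR adjusted p = 0.492).

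The members' calls were read against all genes in every alternative fit. DESeq2 size factors gave 2 higher and 1 lower member, with 7.95% of all genes called, 4.95% higher and 2.99% lower. A filter of 10 counts in 3 libraries gave 2 and 1, beside 7.93%, 4.88% and 3.05%. With no filter 4 rose and 1 fell, beside 6.55%, 3.95% and 2.6%. DESeq2's Wald test gave 6 and 1, beside 14.5%, 8.62% and 5.88%, and limma-voom 2 and 1, beside 7.97%, 4.63% and 3.34%. The replicate number as a block gave 2 and 0, beside 5.52%, 3.45% and 2.07%, and removal of a length trend 2 and 0, beside 6.65%, 3.8% and 2.85%. In each of these fits the sign of Cd40 and Eda2r was positive. Without PTN 1 there were 1 and 0, beside 3.86%, 2.66% and 1.2%. Without PTN 2 there were 5 and 1, beside 8.36%, 5.01% and 3.35%. Without PTN 3 there were 3 and 3, beside 16.3%, 9.56% and 6.79%. Without Control 1 there were 1 and 0, beside 2.61%, 1.62% and 0.99%. Without Control 2 there were 2 and 0, beside 3.03%, 1.74% and 1.29%. Without Control 3 there were 1 and 0, beside 2.48%, 1.51% and 0.975%. Cd40 was the member called in all of them.

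PTN 3 was the highest PTN library in 14 of the 23 tested members (60.9%), against 41.8% of all tested genes, and Control 1 the highest Control library in 14 (60.9%), against 44.2%. These were also the libraries with the lowest share of mitochondrial DNA transcripts in their group, 3.97% in PTN 3, beside 8.12% and 8.1% in the other PTN libraries, and 4.47% in Control 1, beside 7.47% and 5.76% in the other Control libraries. Y-linked transcripts stood at 7.94 CPM in PTN 3 and at 30.3 to 102 CPM in the other 5 libraries. Their part in the members' values was not tested.

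In the list of TNF receptor adaptors and signalling complexes, 2 of 27 tested genes rose and 0 fell by edgeR, or 7.41% called against 7.99% of all genes. At an unadjusted p under 0.05 there were 5 higher (18.5%) and 2 lower (7.41%), against 14.7% and 12.2% of all genes. DESeq2 and limma-voom each called 2 higher (7.41%) and 0 lower. Over all genes DESeq2 called 8.62% higher and 5.88% lower, and limma-voom 4.63% and 3.34%. The median log2 fold change was 0.13, against 0.030 over all genes. Tnfaip3, which encodes A20, the deubiquitinase that ends TNF signalling, had 3.88, 4.64 and 6.45 CPM in PTN and 1.69, 1.18 and 1.68 CPM in Control (log2 change 1.71 with SE 0.30, adjusted p = 0.0118 by edgeR). Its call ended without any 1 Control library, at edgeR adjusted p between 0.0504 and 0.0596. Cflar, the inhibitor of caspase-8 at death receptors, had 69.1, 49.5 and 52.2 CPM in PTN and 28.8, 35.4 and 33.7 CPM in Control (log2 change 0.80 with SE 0.17, adjusted p = 0.0281 by edgeR). Its counts were in part fractional, and its call ended without PTN 1 or any 1 Control library, at adjusted p up to 0.12. The death domain adaptors Tradd and Fadd, the kinase Ripk1 and Casp8 were not called, with edgeR adjusted p between 0.338 and 0.775. Numbers of higher calls in the list were 0 without any 1 Control library, 1 without PTN 1 and 2 without PTN 2 or PTN 3.

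In the list of NF-kB response genes 5 of 21 tested rose and 0 fell by edgeR, or 23.8% higher against 4.93% of all genes. At an unadjusted p under 0.05 there were 10 higher (47.6%, against 14.7%) and 1 lower (4.76%, against 12.2%). DESeq2 called 9 higher (42.9%, against 8.62%) and limma-voom 4 (19%, against 4.63%). Each called 0 lower, against 5.88% of all genes by DESeq2 and 3.34% by limma-voom. The median log2 fold change was 0.48. Those called were Vcam1, an adhesion molecule, and the chemokine genes Cxcl10, Ccl2, Cxcl1 and Ccl7, the last of them named after its values were seen. Ccl7 had 24, 18 and 77 counts in PTN and 7, 4 and 2 in Control. It thus reached 10 counts through PTN libraries alone, and it is among the 5 calls. Ccl2 had 12, 3 and 11 counts in Control, so its Control level rests on few reads. Vcam1 had 253, 336 and 273 CPM in PTN and 85.5, 126 and 112 CPM in Control, and it was called in each of 13 alternatives. Cxcl10 had 9.43, 25 and 20.6 CPM in PTN and 4.9, 4.55 and 4.82 CPM in Control. Its edgeR adjusted p was 0.0113, and 0.0567 and 0.0534 when Control 1 or Control 3 was left out. Ccl2 had 4.93, 2.59 and 13.8 CPM in PTN and 0.507, 0.115 and 0.515 CPM in Control. Cxcl1 had 9.58, 5.75 and 23.7 CPM in PTN and 2.24, 1.26 and 1.17 CPM in Control. Ccl2, Cxcl1 and Ccl7 were each highest in PTN 3, with Ccl7 at 4.01 CPM there. Without PTN 3 their log2 fold changes were 3.32, 2.30 and 2.22, against 4.24, 3.05 and 3.34 with it. The call on Ccl2 ended without Control 1 (edgeR adjusted p = 0.0507), that on Cxcl1 without Control 3 (0.0539) and that on Ccl7 without any 1 Control library (up to 0.127). Without Control 1 and without Control 3, 2 genes of the list were called higher. The feedback inhibitor Nfkbia and the adhesion molecule Icam1 had PTN values wholly above Control values and were not called (edgeR adjusted p = 0.0589 and 0.0534). Of the 21 tested, 17 had a positive log2 fold change (81%, against 52.5% of all genes) and 4 a negative one. These 4 were Tnfaip2 (-0.61), Bcl3 (-0.28), Lcn2 (-0.25) and Sod2 (-0.031), not called by edgeR with all 6 libraries. Tnfaip2 was the gene lower at an unadjusted p under 0.05. The inflammatory cytokine gene Il6 had 0 counts in every PTN library and 0, 0 and 1 counts in Control.

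Of the 8 genes called higher in the adaptor, NF-kB response and shedding lists, 4 had a RefSeq promoter entry. The motif searched above lay in 3 of their 5 windows (60%), against 3.46% of all windows searched. The genes were picked by their calls and the motif was chosen after values were seen, so this share is a description and not a test. The matches are shown in capitals for these 3 genes, in stretches at chr5:90891136-90891185 (plus strand) for Cxcl1, chr5:92349019-92349068 and chr5:92348964-92349013 (minus strand) for Cxcl10, and chr10:19012024-19012073 (minus strand) for Tnfaip3.
Cxcl1: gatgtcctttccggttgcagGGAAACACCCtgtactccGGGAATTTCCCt
Cxcl10, farther match: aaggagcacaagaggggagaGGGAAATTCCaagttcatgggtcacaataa
Cxcl10, nearer match: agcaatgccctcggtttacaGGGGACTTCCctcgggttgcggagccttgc
Tnfaip3: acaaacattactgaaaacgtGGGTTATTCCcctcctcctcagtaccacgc
Cxcl1 has 3 matches, of which those nearest the start lie on opposite strands and overlap.

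The last list held enzymes that shed TNF family proteins, further receptors of the family and other genes, among them the matrix gene Fn1. In it 1 of 10 tested rose and 1 fell by edgeR, or 20% called against 7.99% of all genes. DESeq2 and limma-voom gave the same counts, or 10% higher and 10% lower. Over all genes DESeq2 called 8.62% higher and 5.88% lower, and limma-voom 4.63% and 3.34%. At an unadjusted p under 0.05 there were 3 higher (30%, against 14.7%) and 2 lower (20%, against 12.2%). Rhbdf2, which encodes iRhom2, the partner that carries the shedding enzyme ADAM17 to the cell surface, had 4.81, 7.09 and 6.03 CPM in PTN and 3.51, 2.79 and 2.85 CPM in Control (log2 change 0.97 with SE 0.24, adjusted p = 0.0427 by edgeR). Its call ended without any 1 library other than PTN 3, at adjusted p between 0.0504 and 0.182. Adam17 itself was not called, at 95.5 ± 16.9 CPM in PTN and 84.2 ± 17.4 CPM in Control (SD, n = 3 each, edgeR adjusted p = 0.566). Fn1, which encodes the matrix protein fibronectin and is neither a shedding enzyme nor a family receptor, made the 1 lower call. It fell to 39.2, 34.9 and 49.6 CPM in PTN, against 91.3, 79.6 and 98.9 CPM in Control (log2 change -1.13 with SE 0.17, adjusted p = 0.00759 by edgeR). The 9 markers of mural cells and fibroblasts, which also make fibronectin, summed to 4.82 to 8.1 FPKM in PTN and 15.69 to 20.48 FPKM in Control. Most of this sum was Pdgfra, also a marker of oligodendrocyte precursors, and without it the other 8 summed to 2.02 to 2.66 FPKM in PTN and 3.02 to 3.76 FPKM in Control. Pdgfra and Pdgfrb were called lower. Col1a2 had PTN values below Control values and was not called, with 7, 12 and 27 counts in PTN and 51, 41 and 52 in Control. Kcnj8, with at most 12 counts in any library, had PTN values above Control values. Rgs5, Abcc9, Col1a1, Dcn and Lum overlapped. Their part in the Fn1 result was not tested.

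**Figure D5:**
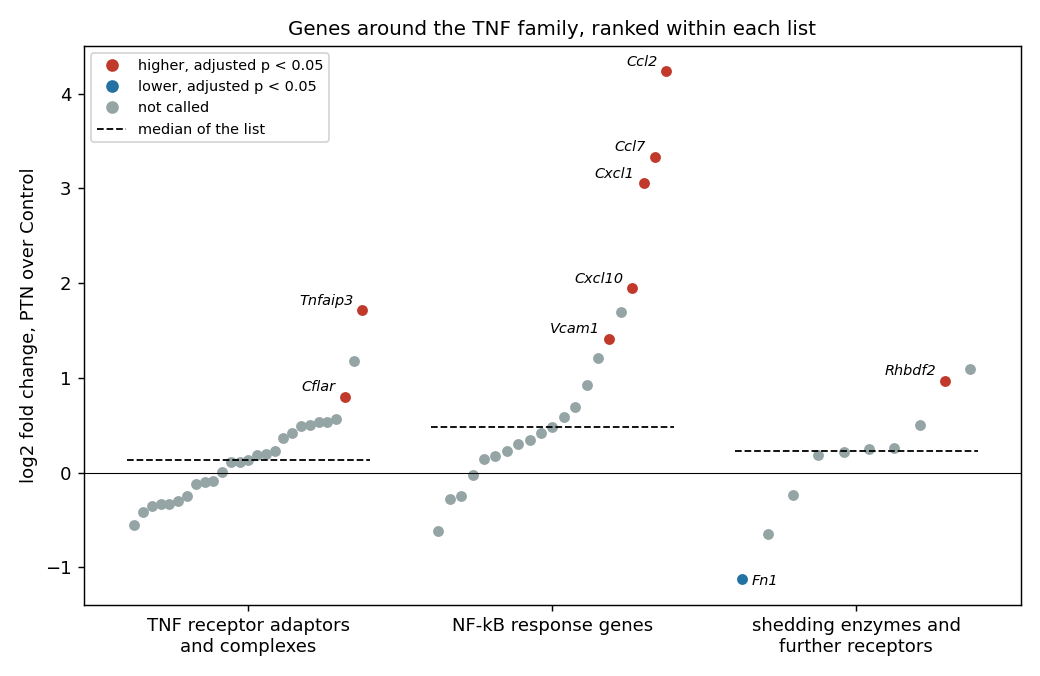
Log2 fold change, PTN over Control, of every tested gene in 3 lists around the family, ranked within each list, with the list's median as a dashed line. The 5 called NF-kB response genes lie between 1.41 for Vcam1 and 4.24 for Ccl2, while the median of the adaptor list is 0.13.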

How the data were processed

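RNA of 6 libraries was sequenced, with 1.3 ug of total RNA per library in a SMARTER mRNA kit, per the labels' protocols. The authors deposited expected counts, not scaled between libraries, and FPKM values, scaled by gene length and depth, per the file headers. The aligner, the counting program and the genome build used are not given in the sources used. All value columns were matched to samples by group letter and number. Before testing, each expected count was rounded. The filterByExpr function of edgeR selected 13161 genes (59% of the table). Libraries were scaled by TMM (factors 0.993 to 1.01) and compared as PTN minus Control with edgeR 4.0.16 (glmQLFit, glmQLFTest, R 4.3.3). P-values were adjusted by Benjamini-Hochberg over all tested genes and called under 0.05. The standard error is the log2 fold change divided by the square root of F. The common biological coefficient of variation was 0.208.

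Members, lists and markers were chosen with earlier results of these data known. The ligand and receptor pairs and the promoter motif were chosen after values were seen. Values in all libraries are given for called members, for uncalled ones without overlap and at least 1 in log2 fold change, and for the 8 of highest mean FPKM, plus up to 4 called genes by smallest p in each list. Lists are described by counts and medians, with no set test. Alternatives were DESeq2 size factors, no filter, 10 counts in 3 libraries, DESeq2 1.42.0, limma-voom (limma 3.58.1), the replicate number as a block, a length trend removed, a looser adjusted p of 0.1 and fits without each library in turn. Shared exons were found in GENCODE M21 (GRCm38), in which all 51 members matched by identifier. The fits were tested on simulated data.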

Additional observations from a re-analysis of the deposited data

How the results depend on the processing

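Over all genes, 649 higher and 403 lower calls became 1134 and 774 by DESeq2's Wald test and 1089 and 824 at an adjusted p under 0.1, and ranged over 201 to 1273 and 130 to 904 when single libraries were left out. Of the family members, 2 higher calls became 4 with no filter (Tnfrsf25 and Tnfsf18 added), 6 by DESeq2 (Fas, Tnfrsf10b, Tnfrsf1b and Tnfrsf21 added), 6 at an adjusted p under 0.1 and 1 to 5 when single libraries were left out. The 1 lower call became 0 with the replicate block and 0 with the length trend removed, and 0 to 3 when single libraries were left out. Tnfsf13 turned to a log2 fold change of 0.015 with the Tnfsfm13 counts added, an alternative chosen after seeing the data. With single libraries left out, higher and lower calls ranged over 0 to 2 and 0 to 0 in the adaptor list, 2 to 6 and 0 to 1 among NF-kB response genes, and 0 to 1 and 1 to 1 in the shedding list. With the replicate block the adaptor list had 1 higher call and the shedding list 0, and with the length trend removed the shedding list had 0. For all of these changes in counts the cause was not tested; a refit without 1 library also has fewer residual degrees of freedom. For the single genes named, 359 values under alternatives kept their direction and their side of the threshold, 10 passed it only under the alternative, 33 no longer passed it and 16 turned sign. Besides Tnfsf13, those that turned sign were of genes not called in any fit concerned. With the replicate block Traf2 was at a log2 fold change of 0.00051, and with the length trend removed Traf6 was at -0.21 and Tnfrsf19 at -0.078. With single libraries left out, Traf2 ranged over -0.19 to 0.18, Traf6 over -0.11 to 0.12, Ltbr over -0.18 to 0.24, Tnfrsf1a over -0.097 to 0.14 and Tnfrsf19 over -0.12 to 0.16.

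The titles give both groups the numbers 1 to 3. Deviations of libraries with the same number from their group means correlated at -0.563, 0.347 and -0.15 across genes, so the numbers were not taken as pairs. PTN 1 correlated best with Control 2 and PTN 3 with Control 1. With the replicate block 454 genes were called higher and 272 lower.

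Members under 1 CPM rest on about 19 to 26 counts or fewer per library, and 28 of the 51 members were too low to test. Median shifts of all genes between settings stayed under 0.1 on the log2 scale.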
